A study of Mus musculus with 19 samples.

Results

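Gene expression in the heart was compared between female mice that carried a dysbiotic gut microbiome (F_DM, 5 hearts) and female mice that carried a normal one (F_NM, 5 hearts). These 10 hearts were chosen by sex and microbiome from a set of 19, and every gene of the deposited table entered the comparison. Of 29726 genes in the table, 10866 had at least 1 FPKM in at least 4 of the 19 hearts and were tested. FPKM counts sequenced fragments scaled by the length of the transcript and the size of the library.

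All animals were C57BL/6NTac of wild-type genotype, 2 months old and raised germ-free, that is, without any microbes until they were colonised. F_DM mice received the gut microbes of Il10-/- donors, and F_NM mice those of wild-type donors. Loss of interleukin 10, a cytokine that restrains inflammation, leads to colitis in mice that carry gut microbes. The remaining 9 hearts came from males with the dysbiotic microbiome (M_DM, 5) or the normal one (M_NM, 4) and are used here to ask whether a response in females differed from that in males. The study's title asks how dysbiosis linked to colitis acts on fibrosis in the heart, and names the transcription factor BCL11B. The labels give neither the number of donors, the cages, nor the time between colonisation and sampling, so an effect of the microbiome cannot be told apart from one of cage or donor, and p-values measure the spread between these mice.

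The labels give the cell type as cardiocytes, but the RNA came from snap-frozen pieces of heart. Cardiomyocyte genes were high in all 10 hearts, with 2738 to 3337 FPKM for Myh6 in F_DM and 2870.3 to 3051 FPKM in F_NM, and genes of fibroblasts, endothelial cells and macrophages were measured beside them. In RNA from whole tissue, fewer cells of a type and less RNA per cell cannot be told apart. Transcripts of mitochondrial DNA made up 52.5% to 55.5% of all FPKM in F_DM hearts and 51.9% to 55.8% in F_NM hearts. Libraries of a group correlated with each other at 0.982 to 0.993 (Pearson, across genes, which are not independent replicates).

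Some libraries stood apart within their own group. The summed level of 20 transcripts typical of liver ran from 45.2 to 446 FPKM over F_DM hearts and from 113 to 473 FPKM over F_NM hearts, and albumin (Alb) was at 156, 154, 0.587, 33.5 and 0.0522 FPKM in F_DM replicates 1 to 5 and at 31.5, 64.8, 79.9, 172 and 150.3 FPKM in F_NM replicates 1 to 5. F_DM replicates 4 and 5 had the highest levels of immunoglobulin transcripts, and F_DM replicate 1 was lower than the other F_DM hearts in a group of short, GC-rich genes described further on. Counts of changed genes are therefore given with and without these libraries.

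Several systems recur in what follows. PGC-1α, encoded by Ppargc1a, is a coactivator that raises the transcription of genes for mitochondria and fatty acid oxidation in heart muscle. The circadian clock is a feedback loop in which CLOCK and BMAL1 (Arntl) activate genes through E-boxes, PER and CRY proteins repress them, REV-ERBα (Nr1d1) represses Arntl, and DBP, TEF and HLF act on D-boxes. Muscle protein is broken down through ubiquitin ligases such as MuRF1 (Trim63) and atrogin-1 (Fbxo32), which FOXO factors switch on and insulin signalling restrains. Collagens made by fibroblasts form the fibrous matrix of the heart wall, and their build-up is the hallmark of fibrosis.

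At an adjusted p of 0.05 (limma, Benjamini-Hochberg over all genes tested), 202 genes were higher in F_DM hearts and 107 were lower, which is 1.86% and 0.985% of those tested, together 2.84%. Most changes were small: 155 of the 202 and 85 of the 107 were under 0.5 on the log2 scale, while 13 rises and 1 fall were over 1. Values of the 10 hearts did not overlap between F_DM and F_NM for 527 genes (4.85%), 355 of them higher (3.27%) and 172 lower (1.58%) in F_DM. Among those were 167 of the 202 genes that rose and 92 of the 107 that fell. The median log2 change of all tested genes was 0.01, and 55.2% of the changes were positive. The rises and falls differed in how they compared with males: 99 of the 107 falls (92.5%) had the same sign in M hearts, while 129 of the 202 rises (63.9%) did. Of all tested genes with a negative change in F hearts 49.2% had the same sign in M hearts, and of those with a positive change 65.2%, so the share among the falls was above its background and that among the rises was near it. The falls are described first, since they include the genes with the smallest adjusted p.

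Ppargc1a was lower in every F_DM heart than in any F_NM heart. It stood at 11.8, 13.0, 9.44, 11.1 and 10.1 FPKM in F_DM hearts, against 20.9, 25.4, 27.2, 32.1 and 18.7 FPKM in F_NM hearts. The F_DM values were also closer together than the F_NM values. The log2 change was -1.08 ± 0.18 (SE, adjusted p = 0.00372), the largest fall among named genes with a mean of at least 1 FPKM. Ppargc1a was the 1 gene that passed among 21 tested coactivators and partner factors of its list, whose median log2 change was 0.00. Its partners Esrra (0.06, adjusted p = 0.841), Ppara (-0.08, adjusted p = 0.873) and Tfam (0.15, adjusted p = 0.303) did not pass.

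The gene sets that PGC-1α is known to act on showed few called members. Of 30 tested genes of fatty acid uptake and oxidation, 2 rose and 0 fell, with a median of 0.04. Acot1, a cytosolic acyl-CoA thioesterase, rose by 0.51 ± 0.13 (adjusted p = 0.0470), and Slc27a1, which takes up fatty acids, by 0.30 ± 0.07 (adjusted p = 0.0216). Neither passed without F_DM replicates 4 and 5 or without the hearts highest and lowest in Alb. Of 46 nuclear genes of oxidative phosphorylation, 1 rose and 0 fell (median 0.01). That gene was Uqcrfs1, the Rieske iron-sulphur subunit of complex III, at 303 to 341 FPKM in F_DM hearts against 220.0 to 262 FPKM in F_NM hearts (0.41 ± 0.10, adjusted p = 0.0308). Uqcrfs1 did not pass without F_DM replicate 1 (adjusted p = 0.0613) or without F_DM replicates 4 and 5 (adjusted p = 0.0975). Without the hearts highest and lowest in Alb it did not pass either (adjusted p = 0.0950), and its change in M hearts was -0.27. None of the 13 genes of the mitochondrial genome passed in this limma fit, and 0 had an unadjusted p under 0.05.

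Transporters of the inner mitochondrial membrane moved in both directions. Slc25a33, a carrier of pyrimidine nucleotides, was at 7.60, 9.24, 11.4, 10.1 and 9.84 FPKM in F_DM hearts, against 18.8, 14.7, 16.9, 20.8 and 16.7 FPKM in F_NM hearts. No F_DM value reached the F_NM range, and the change was -0.81 ± 0.10 (adjusted p = 3.98e-04). Slc25a42, which carries coenzyme A into mitochondria, rose to 9.48, 9.40, 8.44, 9.60 and 9.81 FPKM in F_DM hearts, against 6.39, 6.61, 6.54, 5.81 and 7.08 FPKM in F_NM hearts. Again no F_DM heart reached into the F_NM range, with a change of 0.47 ± 0.07 (adjusted p = 0.00120). In the list of 23 carriers, import and fission or fusion genes, Chchd10 was the other gene that rose, and the median was 0.02.

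**Figure D1:**
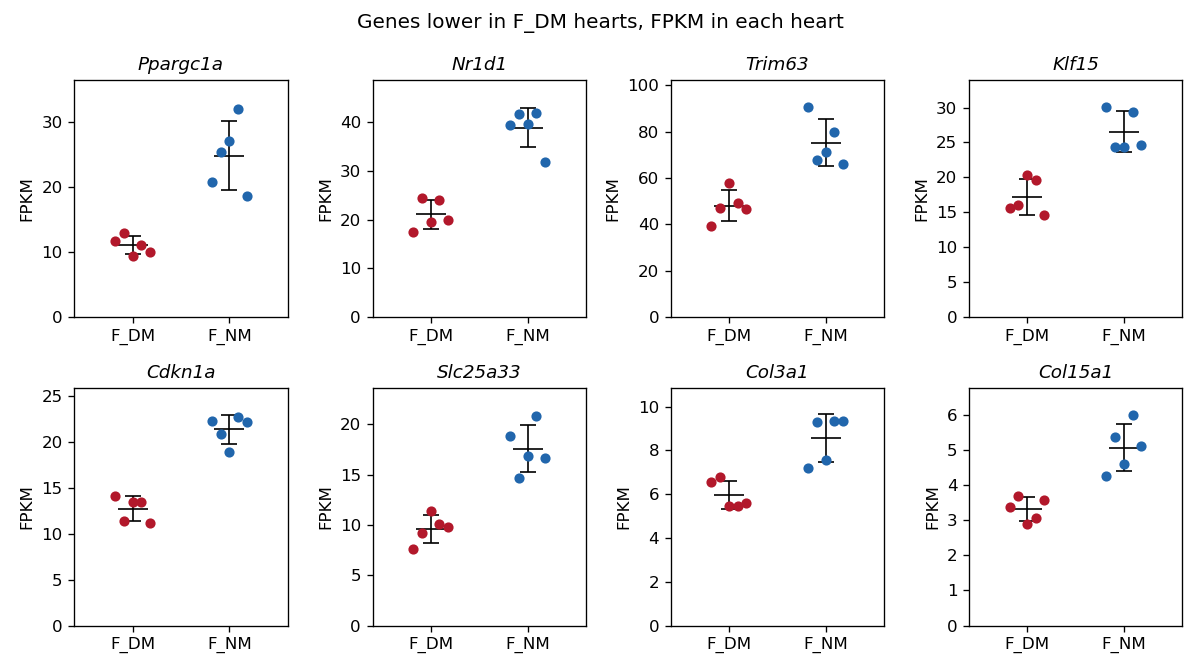
FPKM (linear axes from 0) of 8 genes in each F_DM heart (left, red, n = 5) and F_NM heart (right, blue, n = 5), with the mean and SD in black. In each panel all F_DM hearts lie below all F_NM hearts; Ppargc1a averaged 11.1 FPKM in F_DM and 24.9 FPKM in F_NM.

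Clock genes moved in both directions at once. Of 17 tested members of the clock list, 3 rose and 3 fell, and 8 did not overlap between the groups, against 4.85% of all tested genes. Nr1d1 had the smallest adjusted p of the named genes: it was at 17.5, 24.4, 19.6, 24.0 and 19.9 FPKM in F_DM hearts, against 39.3, 41.7, 39.5, 41.9 and 31.9 FPKM in F_NM hearts. The highest F_DM heart was well below the lowest F_NM heart, and the change was -0.86 ± 0.10 (adjusted p = 3.54e-04). Its close relative Nr1d2 was at 0.01 ± 0.05 (adjusted p = 0.962). Bhlhe40, a repressor that competes for E-boxes, averaged 7.66 ± 0.370 FPKM in F_DM and 10.7 ± 1.07 FPKM in F_NM (SD, n = 5 each; -0.43 ± 0.07, adjusted p = 0.00166). Clock itself averaged 1.24 ± 0.110 FPKM in F_DM and 1.61 ± 0.0771 FPKM in F_NM (-0.22 ± 0.05, adjusted p = 0.0254).

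The clock genes that rose were Per3, Cry1 and Dbp. Per3 was at 2.44, 2.79, 2.47, 2.61 and 2.48 FPKM in F_DM hearts, against 1.52, 1.83, 1.50, 1.67 and 1.80 FPKM in F_NM hearts. Each F_DM heart was above each F_NM heart (0.42 ± 0.08, adjusted p = 0.00604). Cry1 averaged 3.34 ± 0.307 FPKM in F_DM and 2.45 ± 0.125 FPKM in F_NM (0.33 ± 0.06, adjusted p = 0.00634). Dbp, the D-box activator, averaged 25.1 ± 4.82 FPKM in F_DM and 16.3 ± 1.32 FPKM in F_NM, with an adjusted p at the edge of the threshold (0.58 ± 0.15, adjusted p = 0.0490). Hlf (0.24, adjusted p = 0.0991), Tef (0.18, adjusted p = 0.156) and Per2 (0.20, adjusted p = 0.301) did not pass. Arntl was under the level needed for testing, at 0.182 to 0.321 FPKM in F_DM hearts and 0.459 to 0.627 FPKM in F_NM hearts; it is given because it is the partner of Clock, after its values were seen. The groups did not overlap for Arntl. Nor did they in males, at 0.252 to 0.373 FPKM in M_DM and 0.703 to 1.03 FPKM in M_NM hearts. The hour at which each heart was taken is not given in the labels, so the part that time of day had in the clock genes was not tested.

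Both directions have members with clock elements before the start of the gene. The 250 bases upstream of 3 genes are shown to let the elements be seen in place: D-boxes of Per3 (which rose), the E-box of Cry1 (which rose) and E-boxes of Klf15 (which fell). The sequences are from RefSeq on GRCm38.p6, 5′ to 3′ on the gene's strand, and capitals mark the motif named. In Per3 the D-boxes start 205 and 158 bases before the gene start (chr4:151044666-151044915, minus strand), in Cry1 the E-box starts 60 bases before it (chr10:85185055-85185304, minus strand), and in Klf15 the E-boxes start 228 and 172 bases before it (chr6:90462326-90462575, plus strand).
Per3: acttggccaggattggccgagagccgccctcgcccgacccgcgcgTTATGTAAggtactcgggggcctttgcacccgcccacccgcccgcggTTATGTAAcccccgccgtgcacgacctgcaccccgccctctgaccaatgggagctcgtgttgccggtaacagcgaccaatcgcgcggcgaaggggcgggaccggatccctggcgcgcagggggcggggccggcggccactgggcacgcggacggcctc
Cry1: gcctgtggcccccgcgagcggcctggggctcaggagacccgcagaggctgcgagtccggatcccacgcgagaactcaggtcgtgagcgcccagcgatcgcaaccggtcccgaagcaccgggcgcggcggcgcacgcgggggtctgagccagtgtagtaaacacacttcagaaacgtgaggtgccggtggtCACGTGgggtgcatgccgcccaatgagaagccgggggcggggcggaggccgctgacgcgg
Klf15: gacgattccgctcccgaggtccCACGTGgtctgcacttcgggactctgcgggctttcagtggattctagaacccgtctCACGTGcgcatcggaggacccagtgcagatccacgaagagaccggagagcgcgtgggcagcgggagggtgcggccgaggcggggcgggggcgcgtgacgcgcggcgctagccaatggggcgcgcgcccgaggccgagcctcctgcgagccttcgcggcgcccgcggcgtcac

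Over the 7919 tested genes with such a sequence, the E-box (CACGTG) occurred in 10.2% of upstream windows. It occurred in 11 of 148 genes that rose (7.43%), in 11 of 88 that fell (12.5%) and in 5 of 14 clock genes (35.7%). The D-box, searched on both strands as TTATGNAA, occurred in 2.29% of all windows, in 4 of the 148 genes that rose (2.70%), in 2 of the 88 that fell (2.27%) and in 2 of the 14 clock genes. Apart from the clock list, the shares among changed genes were thus near those of all genes. A match describes the letters of the window and does not show that a factor binds there.

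Some genes of muscle protein breakdown were lower in F_DM hearts. Of 22 tested genes of the insulin, FOXO and atrophy list, 6 fell and 0 rose, with a median of -0.14 against 0.01 for all tested genes. Of the 22 changes 17 were negative, while 55.2% of the changes of all tested genes were positive. Trim63, the muscle ubiquitin ligase MuRF1 that tags sarcomere proteins, was at 39.2, 47.2, 57.9, 49.3 and 46.5 FPKM in F_DM hearts, against 90.4, 67.7, 71.2, 80 and 66.1 FPKM in F_NM hearts. Every F_DM heart was below every F_NM heart (-0.63 ± 0.09, adjusted p = 0.00121). Fbxo32, which encodes atrogin-1, was at 14.2, 20.9, 21.3, 21.7 and 18.3 FPKM in F_DM hearts, against 30.5, 23.7, 25.6, 26.5 and 25.4 FPKM in F_NM hearts. Its groups were close but did not overlap (-0.44 ± 0.10, adjusted p = 0.0146). Another ubiquitin ligase of atrophying muscle, Fbxo30, fell by 0.29 ± 0.06 (adjusted p = 0.0101).

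The other 3 were FOXO-responsive or metabolic regulators. Klf15, a zinc finger factor of amino acid and lipid use in muscle, was at 15.6, 16.0, 20.3, 19.7 and 14.6 FPKM in F_DM hearts, against 30.1, 24.3, 24.3, 29.3 and 24.6 FPKM in F_NM hearts. All F_DM hearts were below all F_NM hearts (-0.60 ± 0.08, adjusted p = 9.94e-04). Depp1, a FOXO-induced regulator of autophagy, averaged 35.3 ± 6.84 FPKM in F_DM and 56.0 ± 4.19 FPKM in F_NM (-0.67 ± 0.15, adjusted p = 0.0240). Sesn1, a stress-induced leucine sensor that restrains mTORC1, averaged 31.8 ± 5.76 FPKM in F_DM and 46.6 ± 6.10 FPKM in F_NM (-0.54 ± 0.10, adjusted p = 0.00553). The FOXO genes themselves did not pass: Foxo1 was at -0.09 ± 0.06 (adjusted p = 0.555) and Foxo3 at -0.27 ± 0.09 (adjusted p = 0.126). Without F_NM replicate 4 and F_DM replicate 5, the hearts highest and lowest in Alb, 2 of the 22 passed, and without F_DM replicates 4 and 5, 4 did.

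The upstream window of Trim63 is shown for its FOXO element, which reads GTAAACA and lies here on the opposite strand, in capitals, 194 bases before the gene start (chr4:134314870-134315119, plus strand, RefSeq, GRCm38.p6).
Trim63: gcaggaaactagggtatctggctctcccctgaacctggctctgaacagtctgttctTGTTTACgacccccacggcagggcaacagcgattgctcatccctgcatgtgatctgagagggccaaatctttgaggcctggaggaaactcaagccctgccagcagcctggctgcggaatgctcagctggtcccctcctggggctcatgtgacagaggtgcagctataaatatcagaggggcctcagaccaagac
The element occurred in 2.60% of all windows on either strand, in 7 of the 88 genes that fell (7.95%; Cnksr3, Col6a1, Klf9, Leo1, Tmem140, Trim63 and Uhrf2) and in 4 of the 148 that rose (2.70%). These shares are descriptions and were not tested.

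Klf15 is also known as a glucocorticoid-induced gene, and of 18 tested members of that list 3 fell and 0 rose, with a median of -0.16. Without the hearts highest and lowest in Alb, 1 of the 18 passed. Cdkn1a, the cell cycle inhibitor p21, was at 14.1, 11.4, 13.5, 13.5 and 11.2 FPKM in F_DM hearts, against 22.3, 20.9, 18.9, 22.7 and 22.2 FPKM in F_NM hearts. No F_DM heart came near the F_NM range (-0.71 ± 0.14, adjusted p = 0.00792). Klf9 fell by 0.26 ± 0.06 (adjusted p = 0.0182). The glucocorticoid targets Fkbp5 (0.05, adjusted p = 0.935), Tsc22d3 (-0.11, adjusted p = 0.727) and Per1 (0.04, adjusted p = 0.909) did not pass. Zbtb16 (-0.74 ± 0.24, adjusted p = 0.129) varied widely among F_DM hearts, with 3.01 to 11.3 FPKM there and 7.74 to 12.1 FPKM in F_NM hearts.

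Cdkn1a and Sesn1, which are shared with the lists above, were also the 2 p53 targets of 14 tested that fell. Rnf144b (-0.65, adjusted p = 0.0562), Trp53inp1 (-0.40, adjusted p = 0.0878) and Fas (-0.24, adjusted p = 0.0946) did not pass. Nor did Mdm2 (0.12, adjusted p = 0.371) and Ccng1 (-0.01, adjusted p = 0.982). In the limma fit 7 of the 14 had an unadjusted p under 0.05. Among the 7, Phlda3 (0.39, adjusted p = 0.140) and Sesn2 (0.12, adjusted p = 0.352) had positive changes. Of 14 genes of the integrated stress response, the programme run by ATF4, 2 fell and 0 rose. Chac1, an enzyme that breaks down glutathione, was at 3.00, 4.31, 4.72, 4.23 and 3.69 FPKM in F_DM hearts, against 9.23, 5.52, 7.04, 8.20 and 6.72 FPKM in F_NM hearts. The groups did not overlap (-0.74 ± 0.11, adjusted p = 0.00154). Ppp1r15a, which restores translation after stress, fell by 0.43 ± 0.09 (adjusted p = 0.0147), and Atf4 itself was at -0.10 (adjusted p = 0.729). Of 22 immediate early genes, Fosl2 (-0.46 ± 0.07, adjusted p = 0.00166) and Maff (-0.49 ± 0.11, adjusted p = 0.0221) fell, and Jund (0.70 ± 0.15, adjusted p = 0.0134) rose. Maff and Jund did not pass without F_DM replicates 4 and 5 (adjusted p = 0.0504 and adjusted p = 0.119). Nor did they without the hearts highest and lowest in Alb (adjusted p = 0.108 and adjusted p = 0.0694). Jund had an opposite sign in M hearts (-0.36), and its difference between the sexes passed (adjusted p = 0.0346).

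Further falls came from genes outside these lists. Slc41a3, a magnesium transporter, changed by -0.67 ± 0.11 (adjusted p = 0.00205), and Cnksr3, a scaffold of sodium channel regulation in the kidney, by -0.67 ± 0.09 (adjusted p = 6.16e-04). Rbp7, a retinoid-binding protein of capillary endothelium, averaged 6.62 FPKM in F_DM and 10.6 FPKM in F_NM (-0.61 ± 0.09, adjusted p = 0.00120). Baiap2 changed by -0.59 ± 0.09 (adjusted p = 0.00150), and Rbm24, a splicing factor of heart muscle, by -0.36 ± 0.06 (adjusted p = 0.00224). Each of these 5 genes was lower in all F_DM hearts than in any F_NM heart.

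Collagen transcripts were lower in F_DM hearts. Of 16 tested collagen genes, 6 fell and 0 rose, and the median was -0.34 against 0.01 for all tested genes. Of the 16 changes 15 were negative, and 9 genes did not overlap between the groups. Over all tested genes, 55.2% of changes were positive and 4.85% of genes did not overlap. Summed over the list, collagens were at 106 to 126 FPKM in F_DM hearts and 133 to 158 FPKM in F_NM hearts. The largest parts of that sum were Col4a1 and Col4a2, which did not pass (adjusted p = 0.0558 and adjusted p = 0.0617). Col4a1 was at 27.2 to 33.1 FPKM in F_DM and 34.8 to 40.9 FPKM in F_NM. Col4a2 was at 26.3 to 30.7 FPKM in F_DM and 33.8 to 40.2 FPKM in F_NM. Col3a1, a fibrillar collagen of distensible tissue, was at 6.57, 6.77, 5.44, 5.44 and 5.58 FPKM in F_DM hearts, against 7.18, 9.32, 7.58, 9.35 and 9.36 FPKM in F_NM hearts. All F_DM hearts were below all F_NM hearts, the nearest pair being 6.77 and 7.18 FPKM (-0.46 ± 0.09, adjusted p = 0.0101). Col1a1, the main chain of type I collagen, was at 7.63, 9.61, 7.73, 7.97 and 8.86 FPKM in F_DM hearts, against 9.63, 11.8, 10.9, 12.9 and 11.5 FPKM in F_NM hearts. The groups touched at 9.61 and 9.63 FPKM without overlapping (-0.40 ± 0.09, adjusted p = 0.0157).

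Col15a1 and the Col6 genes belong to the layer next to the cell. Col15a1, a basement membrane collagen, was at 3.37, 3.68, 2.88, 3.07 and 3.57 FPKM in F_DM hearts, against 4.25, 5.38, 4.60, 5.99 and 5.10 FPKM in F_NM hearts. That is a change of -0.49 ± 0.09 (adjusted p = 0.00527), with no overlap. The type VI collagen genes Col6a1 (-0.35 ± 0.07, adjusted p = 0.00604) and Col6a2 (-0.40 ± 0.07, adjusted p = 0.00352) fell as well, as did Col5a3 (-0.36 ± 0.07, adjusted p = 0.00879). Col1a2, the partner chain of Col1a1, was at -0.18 ± 0.07 (adjusted p = 0.241) and did not pass.

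Fewer calls were made among other matrix and fibroblast genes. Of 33 other matrix genes and crosslinkers, 2 fell and 0 rose (median -0.10), with 11 at an unadjusted p under 0.05. The 2 were the small proteoglycan gene Aspn (-0.33 ± 0.06, adjusted p = 0.00368) and elastin, Eln (-0.38 ± 0.09, adjusted p = 0.0233). Postn (-0.34 ± 0.11, adjusted p = 0.123) and Fn1 (-0.14 ± 0.14, adjusted p = 0.790), matrix genes that are high in fibrotic hearts, did not pass. Of 13 fibroblast markers, Col1a1 alone passed and the median was -0.01, with Pdgfra at 0.05 (adjusted p = 0.771) and Dcn at 0.02 (adjusted p = 0.956). Among 28 genes of profibrotic signalling 1 passed (9 at an unadjusted p under 0.05), and it rose: Smad6, an inhibitor of BMP signalling. Ccn2, a matricellular growth factor induced by TGF-β, was at 18.6 to 31.0 FPKM in F_DM hearts and 30.9 to 49.7 FPKM in F_NM hearts and did not pass (-0.66 ± 0.18, adjusted p = 0.0686). The number of collagens that passed was 2 without the hearts highest and lowest in Alb, 3 without F_DM replicates 4 and 5, and 10 with median-ratio scaling and 11 with upper-quartile scaling, with medians of -0.29, -0.30, -0.36 and -0.36. In M hearts the changes of these 6 genes ran from -0.30 for Col5a3, which passed there (adjusted p = 0.0476), to -0.09 for Col1a1. The difference between the sexes did not pass for any of the 6 (adjusted p of 0.464 to 0.946).

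Genes of heart muscle structure and strain did not pass. None of 25 sarcomere and Z-disc genes and none of 19 tested stress and fetal genes passed in the limma fit, with 2 of each list at an unadjusted p under 0.05. Nppb, which encodes brain natriuretic peptide, ran from 24.9 to 42.5 FPKM in F_DM hearts and from 18.3 to 70.2 FPKM in F_NM hearts (-0.33 ± 0.36, adjusted p = 0.798). Nppa (0.13 ± 0.26, adjusted p = 0.914), Myh6 (0.02 ± 0.07, adjusted p = 0.969) and the calcium pump gene Atp2a2 (0.06 ± 0.06, adjusted p = 0.777) likewise did not pass.

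**Figure D2:**
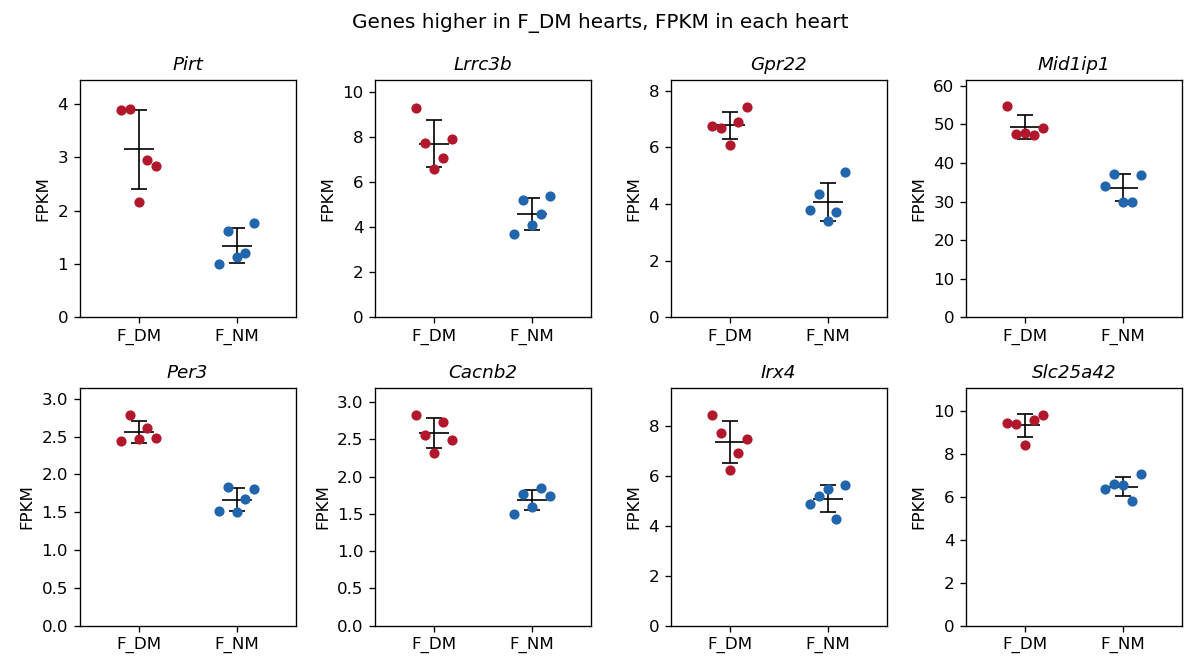
FPKM (linear axes from 0) of 8 genes in each F_DM heart (left, red, n = 5) and F_NM heart (right, blue, n = 5), with the mean and SD in black. In each panel all F_DM hearts lie above all F_NM hearts; Lrrc3b averaged 7.71 FPKM in F_DM and 4.59 FPKM in F_NM.

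Genes of excitation and cardiac patterning were among the rises. Of 32 tested genes of ion channels and conduction, 4 rose and 0 fell, and the median was 0.11. Of the 32 changes 24 were positive, against 55.2% over all tested genes. The groups did not overlap for 10 of the 32, against 4.85% of all tested genes. Irx4, a homeobox factor of ventricular muscle, was at 8.44, 7.72, 6.25, 6.91 and 7.48 FPKM in F_DM hearts, against 4.87, 5.20, 5.46, 4.26 and 5.63 FPKM in F_NM hearts. The groups did not overlap (0.46 ± 0.09, adjusted p = 0.00640). Irx3, a relative that patterns the fast conduction system, rose by 0.46 ± 0.12 (adjusted p = 0.0353). Kcnj5, a subunit of the acetylcholine-gated potassium channel, averaged 11.6 ± 1.62 FPKM in F_DM and 8.01 ± 0.821 FPKM in F_NM (0.48 ± 0.11, adjusted p = 0.0217). Kcnh2, the ERG potassium channel, averaged 18.2 ± 1.19 FPKM in F_DM and 14.6 ± 0.725 FPKM in F_NM (0.30 ± 0.07, adjusted p = 0.0239). The pacemaker channel gene Hcn4 (0.31, adjusted p = 0.0700) and Kcnj3, which encodes the channel partner of Kcnj5 (0.34, adjusted p = 0.0700), did not pass. Of the 4, Irx3 and Irx4 passed without F_DM replicate 1. Without F_DM replicates 4 and 5, Irx4 passed (adjusted p = 0.0430) and Kcnj5 did not (adjusted p = 0.0735). Without the hearts highest and lowest in Alb, Kcnj5 passed (adjusted p = 0.0455) and Irx4 did not (adjusted p = 0.0584). In each of these 2 fits 1 of the 32 passed.

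Cacnb2, a subunit that brings the L-type calcium channel to the membrane, was the 1 of 20 calcium-handling genes that passed. It was at 2.83, 2.56, 2.31, 2.73 and 2.49 FPKM in F_DM hearts, against 1.50, 1.76, 1.59, 1.84 and 1.74 FPKM in F_NM hearts. All F_DM hearts were above all F_NM hearts (0.42 ± 0.07, adjusted p = 0.00186). Gpr22, an orphan receptor of heart and brain counted with the 20 adrenergic and muscarinic genes, was at 6.76, 6.69, 6.09, 6.91 and 7.42 FPKM in F_DM hearts, against 3.77, 4.36, 3.40, 3.70 and 5.13 FPKM in F_NM hearts. It rose by 0.62 ± 0.11 (adjusted p = 0.00368), again without overlap. No other gene of that list passed. Adra1d, the alpha-1D adrenergic receptor gene, is not on the list and is named after its values were seen: it rose by 0.47 ± 0.09 (adjusted p = 0.00604), at 0.697 to 1.13 FPKM in F_DM hearts against 0.289 to 0.5 FPKM in F_NM hearts, without overlap. It did not pass without F_DM replicates 4 and 5 (adjusted p = 0.0733).

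Some rises were taken from outside the naming rule and these lists after their values were seen. Pirt, known in sensory neurons as a regulator of the heat channel TRPV1, was at 3.88, 3.90, 2.16, 2.95 and 2.84 FPKM in F_DM hearts, against 1.00, 1.61, 1.12, 1.21 and 1.76 FPKM in F_NM hearts (0.82 ± 0.13, adjusted p = 0.00205). Lrrc3b, a leucine-rich repeat membrane protein gene, was at 9.30, 7.72, 6.56, 7.05 and 7.90 FPKM in F_DM hearts, against 3.68, 5.21, 4.08, 4.58 and 5.39 FPKM in F_NM hearts (0.64 ± 0.10, adjusted p = 0.00174). Neither gene overlapped between the groups. Angpt1, the ligand of the vascular receptor TIE2, averaged 6.60 ± 0.552 FPKM in F_DM and 4.08 ± 0.406 FPKM in F_NM (0.58 ± 0.09, adjusted p = 0.00205). Bambi, a decoy receptor of the TGF-β family, rose by 0.53 ± 0.07 (adjusted p = 6.16e-04).

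Among genes of lipid synthesis, Mid1ip1, which activates acetyl-CoA carboxylase, was the 1 of 18 that passed. It was at 54.7, 47.5, 47.7, 47.3 and 49.0 FPKM in F_DM hearts, against 34.1, 37.2, 29.9, 29.9 and 36.8 FPKM in F_NM hearts. The groups were far apart and did not overlap (0.54 ± 0.10, adjusted p = 0.00641). Of 32 genes of glucose and glycogen use, the glycogen-targeting phosphatase subunit gene Ppp1r3d passed (0.31 ± 0.07, adjusted p = 0.0107), with a list median of -0.01.

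**Figure D3:**
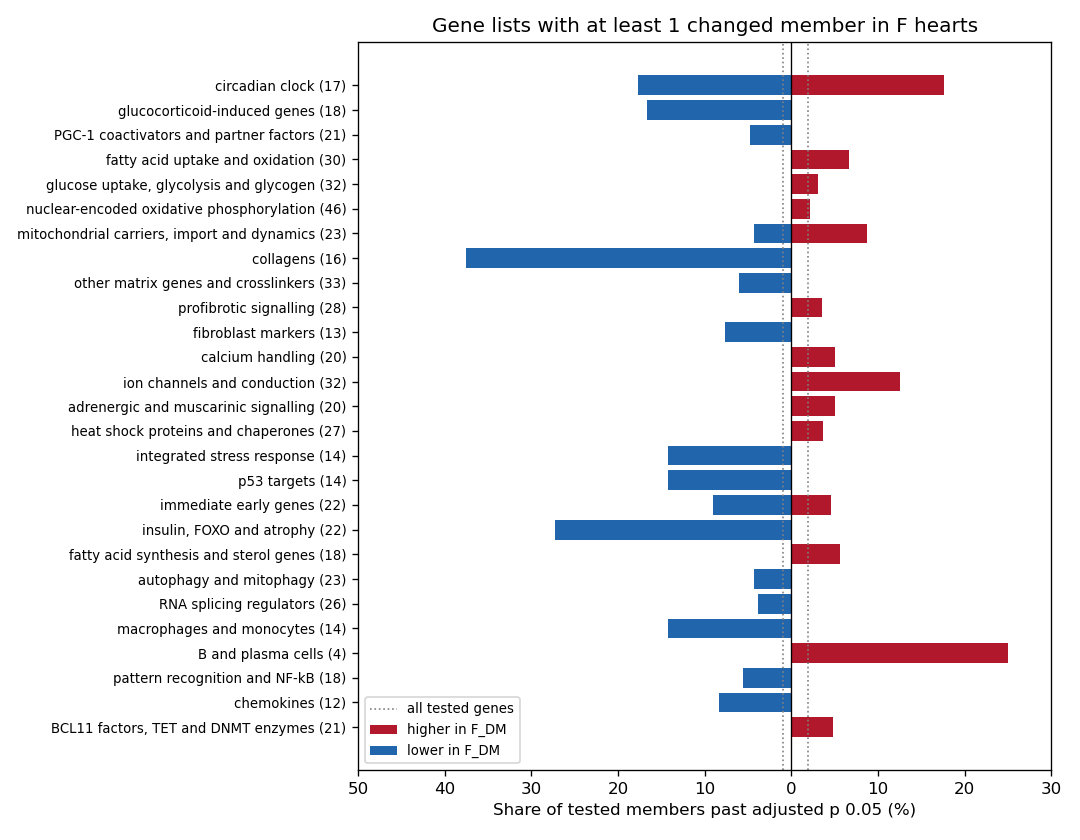
Share of the tested members of each gene list (number tested in brackets) that were higher (red, right) or lower (blue, left) in F_DM than in F_NM hearts at an adjusted p of 0.05 (limma), in percent, for lists with at least 1 such member. Dotted lines mark the shares over all tested genes, 1.86% higher and 0.985% lower; collagens had 6 of 16 lower and the clock list 3 of 17 in each direction.

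Few immune genes passed. None of 33 interferon-stimulated genes and none of 16 antigen presentation genes did in the limma fit (1 and 0 at an unadjusted p under 0.05), and their medians were -0.00 and 0.06. Among 14 macrophage and monocyte genes, 2 fell and the median was -0.05. Lyve1, a hyaluronan receptor of resident macrophages and lymphatic vessels, was at 9.68, 10.2, 10.7, 13.6 and 9.69 FPKM in F_DM hearts, against 15.2, 16.0, 13.6, 15.8 and 13.7 FPKM in F_NM hearts (-0.44 ± 0.10, adjusted p = 0.0263). F_DM replicate 4 and F_NM replicate 3 both stood at 13.6 FPKM, and the other F_DM hearts were lower. Cd14, a coreceptor for bacterial lipopolysaccharide, averaged 2.51 ± 0.222 FPKM in F_DM and 3.52 ± 0.528 FPKM in F_NM (-0.36 ± 0.08, adjusted p = 0.0221). The pan-macrophage genes Adgre1 (0.02, adjusted p = 0.962) and Csf1r (0.01, adjusted p = 0.986) did not pass, and neither Cd14 nor Lyve1 passed without F_DM replicate 1 (adjusted p = 0.0613 and adjusted p = 0.0715). The chemokine gene Ccl9 fell by 0.32 ± 0.08 (adjusted p = 0.0236), as 1 of 12.

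Immunoglobulin transcripts were high in F_DM replicates 4 and 5. Igkc, the kappa light chain, was at 2.79, 0.979, 0.866, 13.3 and 39.9 FPKM in F_DM hearts, against 0.592, 2.39, 0.909, 1.43 and 1.05 FPKM in F_NM hearts. Ighm, the chain of IgM, was at 3.78, 2.70, 1.80, 9.74 and 32.5 FPKM in F_DM hearts, against 1.91, 2.23, 2.38, 1.51 and 1.59 FPKM in F_NM hearts. The other 3 F_DM hearts overlapped the F_NM hearts or nearly so, and neither gene passed (adjusted p = 0.407 and adjusted p = 0.253). Of 4 tested B cell genes, Ebf1, a factor of early B cells that other tissues also express, passed (0.20 ± 0.05, adjusted p = 0.0314), at 0.971 to 1.16 FPKM in F_DM hearts against 0.710 to 0.846 FPKM in F_NM hearts, without overlap. It did not pass without F_DM replicates 4 and 5 (adjusted p = 0.169). Over all 18 B and plasma cell genes the sum was 7.91 to 87.4 FPKM in F_DM hearts (median 12.4) and 6.78 to 9.40 FPKM in F_NM hearts (median 7.46). T and NK cell genes summed to 2.13 to 5.26 FPKM in F_DM and 1.88 to 3.15 FPKM in F_NM, and 1 of the 22 reached the level for testing. None of 26 endothelial, 15 smooth muscle and pericyte or 11 adipocyte genes passed in this limma fit, with 6, 4 and 1 at an unadjusted p under 0.05. Nor did any of 19 liver-typical genes (median -0.69) or 6 red blood cell genes (median -0.36), with 0 of either at that level. In all, 25 of the 52 lists had 0 members past the adjusted threshold.

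The 13 rises over 1 on the log2 scale in F hearts had a change of negative sign in M hearts, and for 11 of them the difference between the sexes passed. The response in F hearts minus that in M hearts passed for 43 genes (0.396% of those tested), of which 41 differed in the positive direction. Among the 202 rises this difference passed for 36, and all 36 had a change of opposite sign in M hearts, 9 of them also called lower in M_DM than in M_NM. The male change enters this difference with its sign turned, so choosing rises that pass it favours an opposite sign in M hearts. These 36 had a median GC content of 59.4% and a median transcript length of 1537 bases, against 52.8% and 3513 bases for the other 166 rises and 50.1% and 3007 bases for all tested genes. GC content was above 60% in 18 of the 36 (50%), in 29 of the 166 (17.5%), in 1 of the 107 falls (0.935%) and in 4.10% of all tested genes.

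Scand1, a short SCAN domain gene, had the largest difference between the sexes of the genes named by rule. It was at 1.72, 9.84, 10.3, 6.97 and 13.3 FPKM in F_DM hearts, against 0.121, 0.726, 0.833, 0.486 and 0.363 FPKM in F_NM hearts. All F_DM hearts were above all F_NM hearts, and F_DM replicate 1 was several times lower than the other F_DM hearts (2.47 ± 0.39, adjusted p = 0.00285). In males the order was turned round, with 0.243 to 1.96 FPKM in M_DM and 2.62 to 6.92 FPKM in M_NM hearts (-1.80 ± 0.41, adjusted p = 0.0358). The difference, F minus M, was 4.27 ± 0.56 (adjusted p = 0.00248).

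Hspb1, a small heat shock protein of muscle, was at 59.4, 130.0, 158, 124 and 137 FPKM in F_DM hearts, against 30.4, 52.8, 46.8, 44.6 and 42.2 FPKM in F_NM hearts. F_DM hearts were all above F_NM hearts, with F_DM replicate 1 again the lowest of its group (1.42 ± 0.30, adjusted p = 0.0165). Hspb1 was the 1 of 27 heat shock and chaperone genes that passed, and the median of that list was -0.03. Its pseudogene Hsp25-ps1 (1.47 ± 0.27, adjusted p = 0.00633) can take reads from Hspb1 and is uncertain. Chchd10, a protein of the mitochondrial intermembrane space, was at 114, 186, 186, 173 and 216 FPKM in F_DM hearts, against 56.3, 65.2, 72.3, 68.4 and 67.3 FPKM in F_NM hearts (1.37 ± 0.24, adjusted p = 0.00527). Cited4, a transcriptional cofactor linked to exercise-induced heart growth in mice, was at 4.81, 3.70, 3.61, 5.09 and 5.37 FPKM in F_DM hearts, against 1.01, 1.49, 1.50, 1.60 and 1.25 FPKM in F_NM hearts (1.21 ± 0.16, adjusted p = 6.16e-04). For Cited4, unlike the preceding genes, F_DM replicate 1 lay within the range of its group.

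Nrtn, the growth factor neurturin, rose by 2.02 ± 0.29 (adjusted p = 0.00186) and the zinc finger gene Zfp771 by 1.80 ± 0.26 (adjusted p = 0.00186). Smaller rises with an opposite sign in males were those of Imp3, a part of the machinery for ribosomal RNA (0.98 ± 0.19, adjusted p = 0.00747), the mitochondrial ferredoxin gene Fdx1 (0.90 ± 0.18, adjusted p = 0.0107) and Smad6. Smad6 averaged 4.00 ± 0.481 FPKM in F_DM and 2.49 ± 0.287 FPKM in F_NM (0.52 ± 0.08, adjusted p = 0.00165), and its difference between the sexes was 0.84 ± 0.11 (adjusted p = 0.00248). Endog, a mitochondrial nuclease (1.13 ± 0.23, adjusted p = 0.0136), Tcf15 (1.12 ± 0.25, adjusted p = 0.0217) and the histone gene H2aj (0.87 ± 0.20, adjusted p = 0.0289) rose too, but for them the difference between the sexes did not pass (adjusted p of 0.0784 to 0.205).

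**Figure D4:**
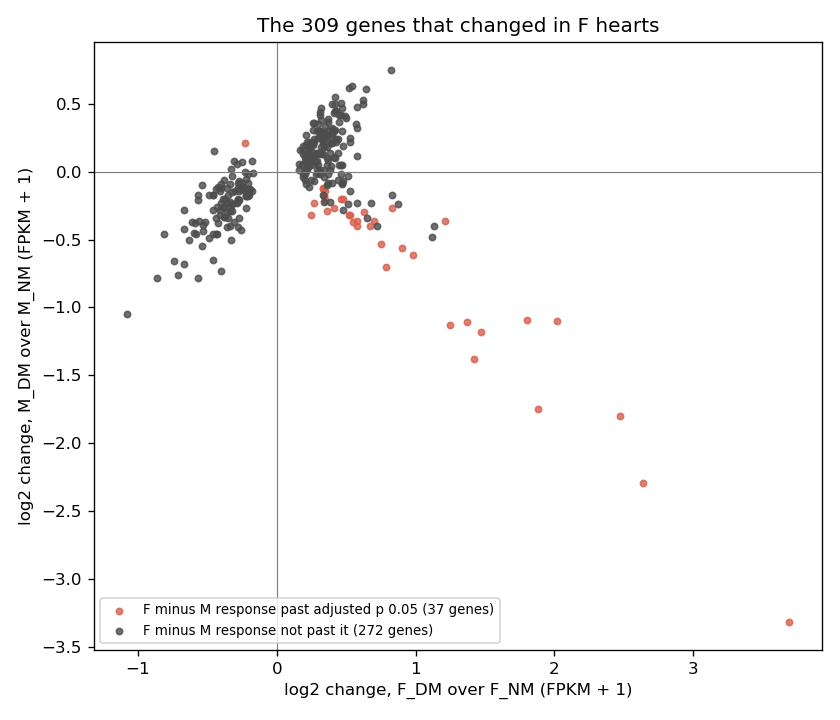
Log2 change in F hearts (F_DM over F_NM, horizontal) against that in M hearts (M_DM over M_NM, vertical) for the 309 genes that passed in F hearts, on the scale of FPKM + 1. The 37 genes whose difference between the sexes passed (orange) include 36 rises that lie below the horizontal line, that is, lower in M_DM than in M_NM hearts; most falls lie in the lower left, with the same sign in both.

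The mean level of the 36 genes, centred on each gene's mean over the 19 hearts, was 0.05, 0.59, 0.72, 0.59 and 0.69 on the log2 scale in F_DM replicates 1 to 5, against -0.55 to -0.29 in F_NM hearts. It was -0.63 to 0.12 in M_DM and 0.05 to 0.43 in M_NM hearts. The genes were chosen on these values, so this is a description of which hearts carry the pattern. F_DM replicate 1 lay between the other F_DM hearts and the F_NM hearts, and within the range of M_DM hearts. Over all tested genes, the median change in F hearts was 0.003 to 0.014 in classes of GC content up to 60%, 0.044 from 60% to 65%, and 0.252 in the 44 genes above 65%, of which 17 rose and 0 fell.

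The same hearts were high in a set of short loci that GENCODE annotates as miRNA genes under predicted-gene names. These loci are themselves members of the 36 genes and enter the summaries of that class, so they are not a separate sign of the pattern. They were chosen after their values were seen and are printed because 2 of the 4 are identical, so that reads from them cannot be told apart by sequence, although the deposited values differ between them. The sequences are from GENCODE M21 on GRCm38, 5′ to 3′, with a capital marking a base that differs from Gm23935, counted from 1 at the 5′ end (G11A in Gm24187). Gm25911 is 56 bases long, against 57 bases for the others, and is printed without marks. Gm23935 lies at chr16:11144125-11144181 (plus strand), Gm24270 at chr9:56223715-56223771, Gm24187 at chr13:9834469-9834525 and Gm25911 at chr1:167340369-167340424 (each minus strand).
Gm23935: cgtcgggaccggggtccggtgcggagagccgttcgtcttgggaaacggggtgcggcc
Gm24270: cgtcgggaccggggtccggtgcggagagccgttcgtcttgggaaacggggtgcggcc
Gm24187: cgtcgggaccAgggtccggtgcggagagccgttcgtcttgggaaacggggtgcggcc
Gm25911: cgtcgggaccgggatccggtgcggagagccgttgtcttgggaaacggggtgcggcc

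Their GC content was 71.4% to 73.7%. Gm23935 was at 96.0, 672, 1396, 1067 and 868 FPKM in F_DM hearts, against 38.3, 69.9, 47.5, 48.0 and 34.8 FPKM in F_NM hearts. The groups did not overlap, and F_DM replicate 1 was near the F_NM hearts (3.69 ± 0.65, adjusted p = 0.00604). The identical Gm24270 was listed at 10.5 to 109 FPKM in F_DM and 4.92 to 9.70 FPKM in F_NM hearts. In males Gm23935 was at 37.0, 26.1, 29.0, 39.8 and 79.5 FPKM in M_DM, against 506, 748, 593 and 111 FPKM in M_NM hearts (-3.32 ± 0.69, adjusted p = 0.0242). FPKM of transcripts this short depends strongly on the length correction and is uncertain. The part of this signal in the changes of other genes was not tested, but the fit can be made with it as a covariate, an alternative chosen after seeing the data. With log2 Gm23935 as a covariate, 0 genes rose and 4 fell (Nr1d1, Maff, Gadd45b and Txnip, the last 2 named after their values were seen), 729 genes had an unadjusted p under 0.05, and the median SE was 0.116 against 0.066 without it.

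With that covariate, genes differed in the size of the change that was left. Scand1 was then at 0.53 ± 0.32 (adjusted p = 0.838), Hspb1 at 0.01 ± 0.30 (adjusted p = 0.996) and Smad6 at 0.18 ± 0.11 (adjusted p = 0.830). Of the 107 falls 3 passed, Nr1d1 among the 3. Nr1d1 was at -1.14 ± 0.16 (adjusted p = 0.00761), Ppargc1a at -1.19 ± 0.33 (adjusted p = 0.288) and Trim63 at -0.83 ± 0.16 (adjusted p = 0.0818). Rises varied: Cacnb2 was at 0.49 ± 0.12 (adjusted p = 0.154), Irx4 at 0.69 ± 0.15 (adjusted p = 0.107) and Cited4 at 0.99 ± 0.28 (adjusted p = 0.279), while Irx3 was at 0.21 ± 0.20 (adjusted p = 0.936), Adra1d at 0.23 ± 0.15 (adjusted p = 0.838) and Acot1 at 0.14 ± 0.21 (adjusted p = 0.977). Over the 36 genes the median change was 0.23 with the covariate, over the other 166 rises 0.28, and over the 107 falls -0.43, all 107 with the same sign as before. Without the covariate these medians were 0.65, 0.34 and -0.36. Gm23935 is itself among the 36 genes, and its own change is 0.00 by construction in that fit. The 36 were also chosen on a pattern that Gm23935 shares, so part of their smaller change was fixed in advance.

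**Figure D5:**
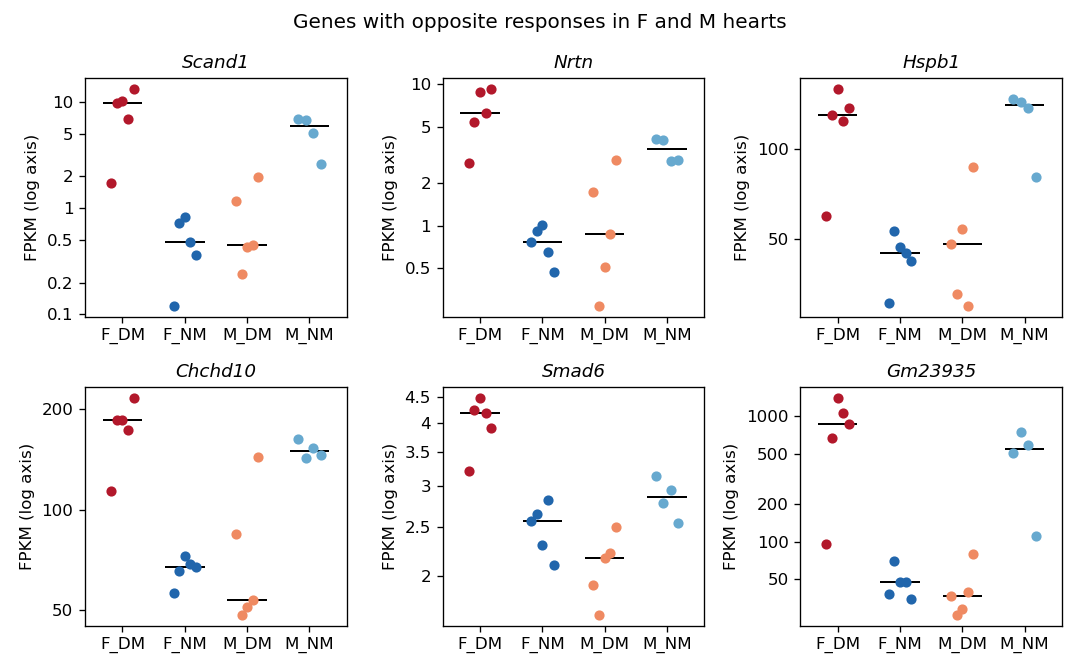
FPKM (log axes) of 6 genes in F_DM, F_NM, M_DM and M_NM hearts (5, 5, 5 and 4 hearts, left to right), with group medians as black lines. F_DM hearts lie above F_NM hearts and M_DM hearts mostly below M_NM hearts; F_DM replicate 1 is the lowest F_DM heart in each panel.

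Among the 107 falls the difference between the sexes passed for 1, Arid5a, an RNA-binding protein named after its values were seen (0.760 ± 0.0982 FPKM in F_DM and 1.07 ± 0.143 FPKM in F_NM). Ppargc1a changed by -1.05 ± 0.19 in M hearts, a difference of -0.03 ± 0.27 (adjusted p = 0.987), and Nr1d1 by -0.78 ± 0.10, a difference of -0.07 ± 0.14 (adjusted p = 0.947). Mid1ip1 (0.63 in males), Cacnb2 (0.45), Irx4 (0.51), Per3 (0.55) and Lrrc3b (0.61) also passed in M hearts. A p that misses the threshold does not show that the sexes respond alike, and the SE of these differences was 0.10 to 0.27. Of the 107 falls 38, and of the 166 rises 34, passed in the same direction in M hearts, where 1.91% of all genes passed.

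Bcl11b, the gene of the study's title, was too low for the test across genes in these hearts. It was at 0.115, 0.169, 0.143, 0.0928 and 0.127 FPKM in F_DM hearts, against 0.0346, 0.0693, 0.0696, 0.0389 and 0.0356 FPKM in F_NM hearts. All F_DM hearts were above all F_NM hearts, with means of 0.129 ± 0.0287 FPKM in F_DM and 0.0496 ± 0.0182 FPKM in F_NM (SD, n = 5 each). The difference was 1.43 ± 0.27 on the log2 scale of FPKM itself, or 2.70-fold (exact two-sided permutation test over all splits of the 10 hearts, p = 0.00794, the smallest this design allows). Any gene whose groups do not overlap reaches this p, and 4.85% of tested genes did not overlap. Bcl11b was taken from the title of the study that made these data, and its p is not adjusted for other genes. At levels under 0.2 FPKM in every F heart the value rests on few fragments, whose number is not known from these files. In males Bcl11b was at 0.103 to 0.146 FPKM in M_DM and 0.0456 to 0.0834 FPKM in M_NM hearts, also without overlap. BCL11B is known above all as a factor of T cells, and the 22 T and NK cell genes summed to 2.13 to 5.26 FPKM in F_DM hearts and 1.88 to 3.15 FPKM in F_NM hearts. Trac, the T cell receptor alpha chain, was at 0.884 to 1.57 FPKM in F_DM and 0.702 to 1.33 FPKM in F_NM. Trbc2 was at 0 to 0.849 FPKM in F_DM and 0 to 0.314 FPKM in F_NM, and Cd3e at 0.0125 to 0.0952 FPKM in F_DM and 0 to 0.0318 FPKM in F_NM. Trbc1 was highest in an F_NM heart, with 0.0341 to 0.468 FPKM in F_DM and 0 to 0.644 FPKM in F_NM. Cd4 was at 0.0442 to 0.276 FPKM in F_DM and 0.134 to 0.199 FPKM in F_NM. Each of these genes had its highest F_DM value in replicate 5, but other genes of the list did not. Cd3d (0.0866 FPKM) and Cd8a (0.0667 FPKM) were highest in F_DM replicate 4. Lef1 (0.0448 FPKM) was highest in F_DM replicate 2, as was Bcl11b. The part of T cells in the level of Bcl11b was not tested. Of 21 tested genes of BCL11 factors, TET and DNMT enzymes and chromatin partners, 1 passed: Smarca2, an ATPase of BAF chromatin remodelling (0.29 ± 0.06, adjusted p = 0.00641). Tet1, a DNA demethylase also under the level for testing and named after its values were seen, averaged 0.104 ± 0.0250 FPKM in F_DM and 0.0473 ± 0.0125 FPKM in F_NM. In males Tet1 averaged 0.0999 FPKM in M_DM and 0.0480 FPKM in M_NM.

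The number of changed genes depended on single libraries. Leaving out F_DM replicate 1 left 217 genes, leaving out F_DM replicates 4 and 5 left 126 (72 higher and 54 lower), and leaving out the hearts highest and lowest in Alb left 98 (67 higher and 31 lower). Of the 309 genes, 142 passed in each of 10 fits that left out 1 F heart, 88 of them higher and 54 lower in F_DM. Ppargc1a, Nr1d1, Trim63, Klf15, Cdkn1a, Chac1, Slc25a33, Slc25a42, Per3, Cacnb2, Irx4, Gpr22, Mid1ip1, Col6a1, Col6a2, Col15a1, Scand1, Chchd10, Cited4 and Smad6 were among those, while Hspb1 and Col1a1 were not. The share of rises was 65.4% as reported, 56.9% with median-ratio scaling, 53.1% with upper-quartile scaling and 52.0% with a correction for GC content and length.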

How the data were processed

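Heart RNA of 19 mice was sequenced from oligo(dT) libraries, per the labels' protocols. The deposited table gives FPKM per gene and heart, which the authors made with cutadapt 1.9, HISAT2 2.0.4 and StringTie 1.3.4d, with DESeq2 named for testing, per the submitters' processing notes. Those notes name hg38, while 99.7% of gene IDs were found in mouse GENCODE M21. The mouse build used is not given in the sources used here, and coordinates are those of GRCm38. The values hold no counts, so depth is unknown and no counting interval is given.

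Tests used genes that reached 1 FPKM in 4 or more of 19 hearts, on log2(FPKM + 1) with limma 3.58.1 (R 4.3.3, trend and robust empirical Bayes, two-sided, Benjamini-Hochberg over 10866 genes). The 4 groups had 1 mean each in 1 fit, and the contrasts were F_DM minus F_NM and that minus M_DM minus M_NM. Log2 changes are given ± SE on this scale, which understates the change of low genes. Labels call the samples separate mice, and each was taken as independent. No F_DM heart correlated best with the F_NM heart of its own replicate number. With so few hearts this cannot decide whether equal numbers mark a shared cage, day or batch.

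Named genes are the 12 largest rises and 12 largest falls past the threshold, leaving out means under 1 FPKM and predicted-gene symbols, then up to 3 members of each of 52 lists by smallest p, then Bcl11b, then the largest differences between the sexes. Other genes are members of those lists or were chosen after their values were seen. The members and lists were chosen with earlier results of these data known. The fit was tested on simulated data. Upstream motifs were searched on both strands in the 250 bases before RefSeq gene starts, with 7 motifs in all. Python 3.11.15, pandas 2.3.3 and matplotlib 3.10.9 were used for summaries and figures. Alternatives covered scaling, filter, pseudocount, GC content, array weights, a replicate block, covariates and leaving out libraries.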

Additional observations from a re-analysis of the deposited data

Results flagged for a closer look

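In 6 of 118 groups of 5 hearts examined, 1 heart lay far from the rest of its group by Dixon's criterion, which chance alone meets in about 1 of 20 groups. Mid1ip1 was at 54.7 FPKM in F_DM replicate 1, and Lyve1 at 13.6 FPKM in F_DM replicate 4, each above its group. In F_NM hearts, Tcf15 was at 2.31 FPKM in replicate 3 and Cd14 at 4.45 FPKM in replicate 1, above their groups, while Nr1d1 was at 31.9 FPKM in replicate 5 and Ebf1 at 0.710 FPKM in replicate 4, below theirs.

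The response in F hearts minus that in M hearts passed the limma interaction test for 13 named genes. In the positive direction it was 2.48 for Chchd10 (adjusted p = 0.00248), 2.65 for Hsp25-ps1, 2.80 for Hspb1 (adjusted p = 0.00570), 2.89 for Zfp771, 3.11 for Nrtn and 4.27 for Scand1. It was 1.59 for Imp3, 1.57 for Cited4, 1.46 for Fdx1, 1.06 for Jund, 0.84 for Smad6 and 0.68 for Uqcrfs1 (adjusted p = 0.0453). In the other direction stood Coq10b, a coenzyme Q-binding protein of mitochondria, at -0.34 (adjusted p = 0.0354), with 7.30 to 7.77 FPKM in F_DM hearts against 7.45 to 8.71 FPKM in F_NM hearts (-0.11 ± 0.05, adjusted p = 0.313). In the limma fit with log2 Gm23935 as a covariate 0 differences passed, and 399 genes had an unadjusted p under 0.05.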

How the results depend on the processing

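The count of 309 genes in F hearts became 467 with the GC and length correction, 585 with array weights, 98 without the F hearts highest and lowest in Alb, 126 without F_DM replicates 4 and 5, 457 with GC correction of the F hearts alone and 4 with log2 Gm23935 as a covariate. Leaving out 1 library gave 167 (without F_NM replicate 1) to 357. It was 201 without F_NM replicate 3 and 172 without F_NM replicate 4. The count of 43 for the difference between the sexes became 22 without a filter, 71 with the GC correction, 85 with array weights and 0 with the covariate, and 24 to 102 (without M_NM replicate 2 and without M_DM replicate 5) with 1 library left out. The replicate block gave 257 and 36 genes, and 387 and 55 with GC correction. Correlations between F_DM and F_NM hearts of equal number were -0.437 to 0.0917, which cannot decide whether the numbers pair the hearts. With the block Bcl11b stayed at 1.43 (exact p = 0.0625, the smallest for 5 pairs), and leaving out 1 heart gave 1.32 to 1.57. Of 57 named genes, Nr1d1 passed under each alternative run. Tcf15 reversed, to -0.08, with the covariate. Of 2218 values of named genes under alternatives, 1949 kept their direction and their side of the threshold and 268 no longer passed. The cause of each shift was not tested. Depth is unknown, so genes under 1 FPKM are the least certain.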

Other observations

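Single genes of lipid and fuel use outside the lists were chosen after their values were seen, because they passed in either direction, and say nothing of their pathways as a whole. Dgat2, which makes triglycerides, was at 96.7 to 113 FPKM in F_DM hearts against 81.5 to 90.3 FPKM in F_NM hearts (0.28 ± 0.05, adjusted p = 0.00445). Gpam, the enzyme of the first step of glycerolipid synthesis, was at 29.7 to 36.2 FPKM in F_DM against 21 to 27.7 FPKM in F_NM (0.37 ± 0.08, adjusted p = 0.0188). Slc22a5, the carnitine transporter, was at 8.88 to 11.4 FPKM in F_DM against 6.23 to 8.05 FPKM in F_NM (0.43 ± 0.08, adjusted p = 0.00783). Pdp1, the phosphatase that activates pyruvate dehydrogenase, rose by 0.36 ± 0.07 (adjusted p = 0.00879), and Idh1, the cytosolic isocitrate dehydrogenase, by 0.32 ± 0.07 (adjusted p = 0.0191). Lpin1, a phosphatidate phosphatase, fell by 0.32 ± 0.08 (adjusted p = 0.0323). Gpam, Pdp1 and Idh1 passed neither without F_DM replicates 4 and 5 nor without the hearts highest and lowest in Alb. Lpin1 did not pass in the latter fit.

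Other genes were likewise chosen after their values were seen. Flcn, folliculin, which regulates nutrient signalling at the lysosome, was at 8.86 to 11 FPKM in F_DM hearts against 12.6 to 14.9 FPKM in F_NM hearts (-0.46 ± 0.06, adjusted p = 9.26e-04), without overlap. Its partner Fnip2 was at 0.814 to 1.2 FPKM in F_DM against 1.09 to 2.24 FPKM in F_NM (-0.35 ± 0.09, adjusted p = 0.0373), with overlap. Among transcription factor genes, Prox1 rose by 0.37 ± 0.09 (adjusted p = 0.0217), Tbx2 by 0.31 ± 0.07 (adjusted p = 0.0166) and Irx2 by 0.44 ± 0.09 (adjusted p = 0.00971), with overlap between the groups for Irx2. Fnip2, Prox1, Tbx2 and Irx2 passed neither without F_DM replicates 4 and 5 nor without the hearts highest and lowest in Alb.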
